A study of Mus musculus with 11 samples.

Results

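The genes described here encode the integrin chains and homing receptors with which leukocytes hold on to vessel walls: Itga4, Itgb1, Itgb7, Itgae, Itgal, Itgb2, Itgam, Selplg and Cd44. They were taken by name from the gene column of the 11 count files, 9 of the 23940 genes seen in the series, and all 9 were found. Integrins are surface receptors made of 1 α and 1 β chain. α4 with β1 (VLA-4) binds VCAM-1 and fibronectin, α4 with β7 binds MAdCAM-1, and αE (Itgae) with β7 binds E-cadherin. αL with β2 (LFA-1) binds the ICAMs, and αM with β2 (Mac-1) binds ICAM-1, fibrinogen and complement fragments. Selplg encodes PSGL-1, the ligand with which leukocytes roll on P- and E-selectin, and Cd44 encodes a receptor for hyaluronan. Antibodies against α4 integrins keep lymphocytes out of the central nervous system in multiple sclerosis, the disease for which EAE serves as a model.

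The samples were cerebral cortex of C57BL/6 mice, perfused, digested with papain and Liberase TM and freed of myelin in bovine serum albumin, then captured with the 10x 3′ v2 chemistry, which counts transcripts by unique molecular identifiers (UMIs). There were 3 adult libraries (7 to 11 weeks, untreated, 6 mice pooled), 2 aged libraries (18 months, untreated, 3 mice pooled), 4 juvenile libraries (P10, untreated, 6 mice pooled) and 2 EAE libraries (3 mice pooled). EAE (experimental autoimmune encephalomyelitis) was induced in females of 7 to 11 weeks with a myelin oligodendrocyte glycoprotein peptide in Complete Freund's Adjuvant at the tail base and pertussis toxin given intravenously, and tissue was taken at the disease peak. The labels give no sex for the other groups, for which the study's methods name females as the default, and no untreated group received adjuvant or toxin, so an effect of the autoimmune disease and one of adjuvant or toxin cannot be told apart. In comparisons of EAE with 18-month libraries, disease and age cannot be told apart either. Nothing states that libraries of a group came from separate pools of mice, so p-values do not measure the spread between mice. Between groups they measure the spread between libraries only. Where the library is a block, they measure the spread of cell types that is left within libraries.

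The 11 libraries held 15755504 to 34326349 UMIs, and 50625 of 54646 barcodes were kept as cells, 2552 to 8322 per library with median depths of 2420 to 4199.5 UMIs. Pairs of libraries shared 13 to 125 cell barcodes (median 34), most between EAE 1 and EAE 2. The library Adult 1 stood apart: in ECs its mean squared difference from Adult 2 and Adult 3, in units of the sampling error, was 11.4 and 12.1 per gene, against 1.25 between those 2, which differed by 0.976 in microglia and were kept as 2 libraries, and 756 of its 859 ECs (endothelial cells), 328 of its 386 microglia and 155 of its 180 perivascular macrophages (PVMs) lay in clusters that held at most 44 cells of such a type from another adult library. Markers of choroid plexus cells, Ttr above all, summed to 22353 to 56653 CPM (the share of a cell type's UMIs in a library that fall to a gene, on the usual scale) in microglia of the 3 adult libraries and to 8000 to 10594 CPM in those of the EAE libraries. Because Adult 1 stood apart, results that rest on adult libraries are given with and without it. Leaving it out does not remove the difference in choroid plexus markers, which every adult library shows.

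Cells were named from marker genes, with neither the 9 genes nor the related genes below used for that. In EAE 1021 CD4 and 308 CD8 T cells, 124 NK cells, 60 B cells, 324 neutrophils, 1449 macrophages (monocytes and macrophages with Ccr2, Ly6c2 or Arg1), 362 dendritic cells, 458 PVMs, 2853 microglia and 7199 ECs were found. The 18-month libraries held 73 CD4 and 193 CD8 T cells, 34 NK cells, 141 B cells, 80 neutrophils, 55 macrophages, 30 dendritic cells, 422 PVMs and 1189 microglia. Adult libraries held few leukocytes other than microglia and PVMs, with 81 T cells, 35 NK cells, 166 B cells, 13 neutrophils and 18 macrophages in all. EAE microglia and PVMs mostly lay in clusters that held few adult cells. Of EAE microglia 2724 were in a cluster with 23 of 961 adult microglia, and 434 of 458 EAE PVMs were in a cluster with 1 adult PVM.

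Positions are from the GRCm38 (mm10) annotation and cover whole genes, exons and introns. Itga4 lies at chr2:79255426-79333123, Itgb1 at chr8:128685654-128733200, Itgb7 at chr15:102215995-102231944 and Itgae at chr11:73090583-73147446. Itgal (chr7:127296260-127335138) and Itgam (chr7:128062640-128118491) both lie on chromosome 7, and Itgb2 is at chr10:77530252-77565708. Selplg is at chr5:113818536-113832644 and Cd44 at chr2:102811141-102901665. Exons of Itga4 overlap those of Cerkl on the other strand and exons of Itgam overlap those of Gm49368 on the same strand, so part of their counts may belong to either gene. The stretches below, from the RefSeq promoter table of the same build, are the 120 bases before the start of 4 genes, shown because their levels differ in the cells that hold them: Itgam in myeloid cells, Itgb1 in vascular cells and leukocytes, and Itgb7 and Itga4 in T cells, NK cells and dendritic cells of EAE libraries above other leukocytes. Capitals mark GAGGAA, a core to which the myeloid and lymphoid factor PU.1 binds, or its reverse complement TTCCTC.
Itgam (chr7:128062520-128062639, plus strand): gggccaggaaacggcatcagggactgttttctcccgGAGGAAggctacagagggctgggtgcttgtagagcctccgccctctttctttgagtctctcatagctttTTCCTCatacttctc
Itgb1 (chr8:128685534-128685653, plus strand): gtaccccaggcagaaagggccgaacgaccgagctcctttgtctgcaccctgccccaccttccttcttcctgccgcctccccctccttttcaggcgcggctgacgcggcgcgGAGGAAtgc
Itgb7 (chr15:102231936-102232055, minus strand): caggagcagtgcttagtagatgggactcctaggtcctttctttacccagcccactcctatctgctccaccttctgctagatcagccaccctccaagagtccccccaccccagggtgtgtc
Itga4 (chr2:79255306-79255425, plus strand): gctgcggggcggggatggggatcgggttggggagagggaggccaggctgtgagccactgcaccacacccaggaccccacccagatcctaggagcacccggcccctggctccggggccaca
Of the 9 genes 5 had an entry in the table. On both strands, over 250 bases before the start, the motif was in 3 of the 5 (Itgam, Itgb1 and Cd44), and in 23.3% of all 32851 promoters of the table, so its presence in these windows is a description only.

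The level of each gene in every cell type, as CPM of the summed UMIs, is shown by library in the plot of levels by cell type. A summed level does not tell more cells with a transcript from more transcripts per cell, and levels of different genes are not compared, since the counts are not per length. Types with fewer than 10 cells in a library are left out of the plot.

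**Figure D1:**
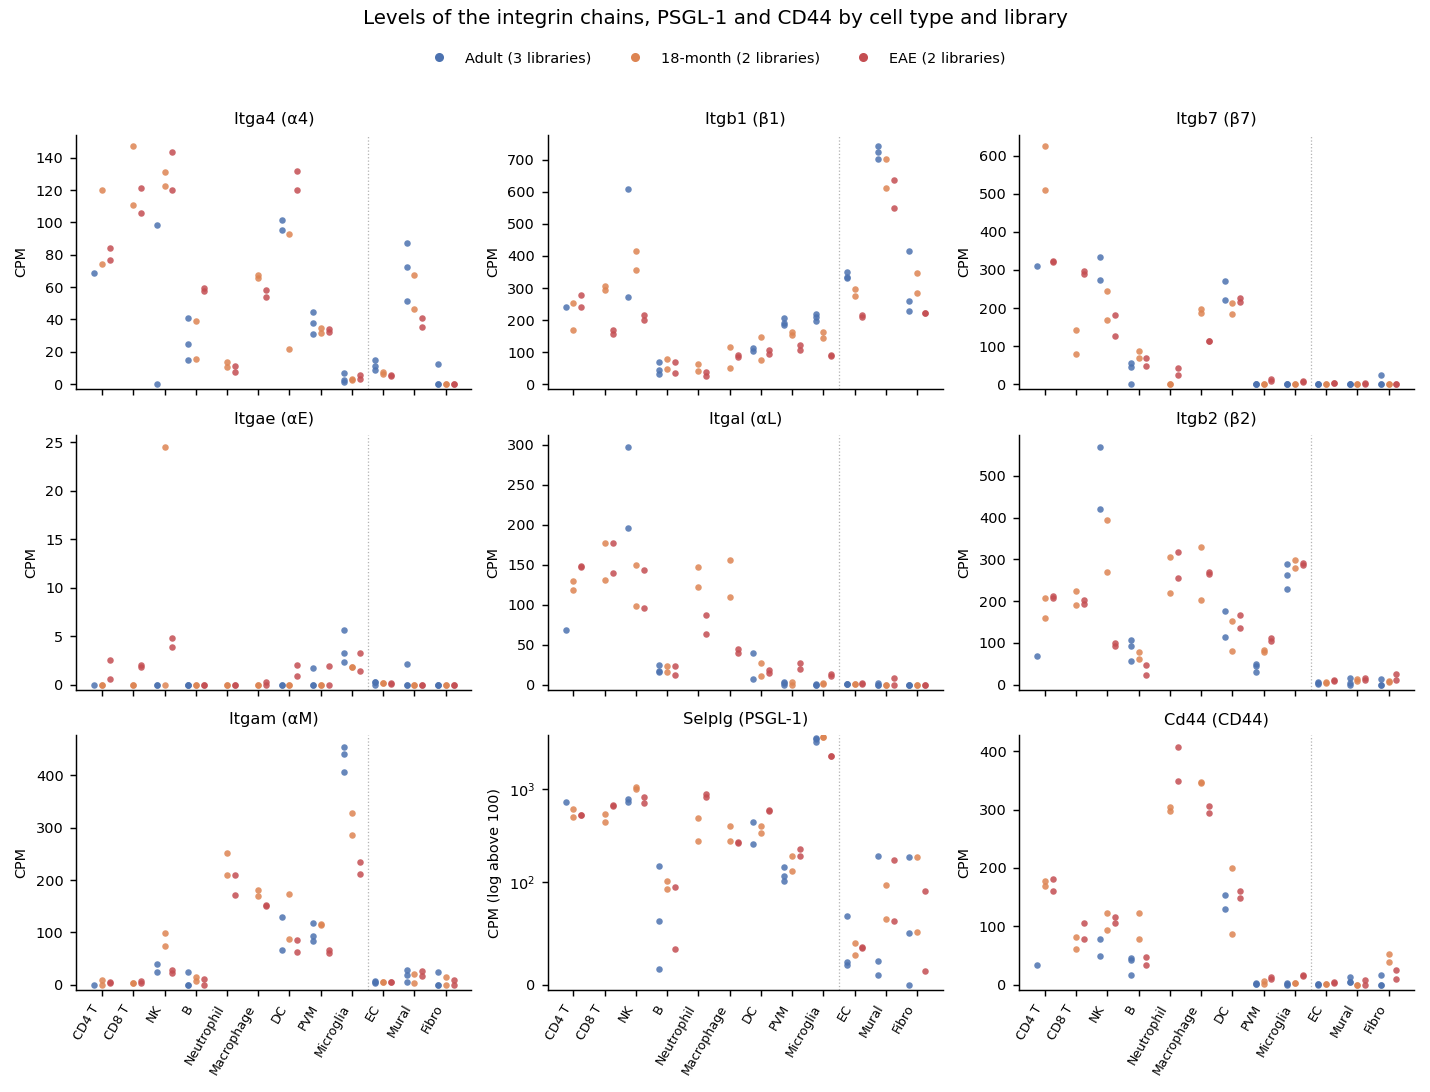
CPM of the 9 genes (vertical axes, Selplg logarithmic above 100) in 12 cell types, with 1 point per library of at least 10 cells in adult, 18-month and EAE groups; a dotted line separates leukocytes from vascular cells. Selplg reaches 2285 to 3657 CPM in microglia of the 7 libraries, Itgb1 is highest in mural cells, and Itgae stays at or below 24.5 CPM.

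Itga4, the α4 chain, was at 143 and 120 CPM in NK cells of EAE 1 and EAE 2, at 120 and 132 in dendritic cells and at 121 and 106 in CD8 T cells. These 3 types overlapped in their order. CD4 T cells followed with 76.6 and 84.5 CPM, then B cells with 57.6 and 59.4 and macrophages with 54.1 and 58.4, and the last of these overlapped with B cells. The B cell values rest on few UMIs in 34 and 26 cells, so the place of B cells in this order is uncertain. Neutrophils held 11.2 and 7.31 CPM and microglia 5.47 and 3.09, which overlapped with the 5.81 and 5.22 CPM of ECs. Mural cells (pericytes and smooth muscle cells) were at 41.0 and 35.1 CPM, above ECs and neutrophils.

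Itgb1, the β1 chain that pairs with α4 and with the α chains that bind matrix, was highest in mural cells (636 and 550 CPM in EAE 1 and EAE 2). Among leukocytes it was highest in CD4 T cells, at 242 and 278 CPM, followed by NK cells at 201 and 216, which overlapped with ECs at 211 and 215. Itgb7 was at 322 and 322 CPM in CD4 T cells of the 2 EAE libraries, 288 and 298 in CD8 T cells, 225 and 216 in dendritic cells, 128 and 183 in NK cells and 113 and 113 in macrophages. In ECs Itgb7 was at 2.50 and 3.02 CPM and in fibroblast-like cells at 0.

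Itgae was barely seen. Its highest level was 24.5 CPM, which was 1 UMI in 12 NK cells of Aged 2, and no other adult, 18-month or EAE library and type went above 5.63 CPM (4 UMIs in microglia of Adult 3). In EAE T cells there were 2 and 5 UMIs among 803 and 736 cells. It passed the filter on low counts in none of the comparisons below.

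In EAE libraries Itgal, the αL chain, was highest in T cells, at 177 and 139 CPM in CD8 and 147 and 148 in CD4 T cells of EAE 1 and EAE 2. NK cells were at 143 and 96.1 CPM, neutrophils at 87.0 and 63.4 and macrophages at 39.6 and 44.8, and microglia at 10.7 and 13. The order was another one in the other groups: adult NK cells of the 2 libraries with at least 10 of them held 196 and 298 CPM, above adult T cells (69.8 to 93.4). In 18-month libraries neutrophils (122 and 147) and macrophages (110 and 156) overlapped with each other and with CD4 (119 and 130) and CD8 T cells (131 and 177). The 18-month CD4 values lay below the CD8 values. Itgb2, its β chain, had another order. It was at 290 and 287 CPM in microglia, 317 and 256 in neutrophils and 269 and 265 in macrophages, with CD4 (213 and 207) and CD8 T cells (202 and 192) next. Neutrophils overlapped microglia and macrophages, and microglia lay above macrophages in both libraries. NK cells of EAE libraries held 101 and 91.3 CPM, below all other leukocytes but B cells.

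Itgam, the αM chain of Mac-1, was at 234 and 212 CPM in microglia, 210 and 171 in neutrophils and 152 and 151 in macrophages of the 2 EAE libraries. Dendritic cells and PVMs held 61.5 to 84.9 CPM. In CD8 T cells it lay at 7.03 and 3.93 CPM, which overlapped with the 5.45 and 5.59 CPM of ECs. In CD4 T cells it was at 5.34 and 3.11 CPM, from too few UMIs to set these cells apart from ECs.

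Selplg was highest in microglia in every adult, 18-month and EAE library, among types of at least 10 cells. In EAE it was at 2285 and 2307 CPM there, at 901 and 836 in neutrophils, 720 and 827 in NK cells, 659 and 671 in CD8 and 533 and 529 in CD4 T cells, and at 263 and 269 in macrophages. Cd44 was lower in microglia than in other myeloid cells but PVMs. It was at 407 and 349 CPM in neutrophils and 305 and 295 in macrophages, against 16.4 and 15.6 in microglia and 12.7 and 10.8 in PVMs. CD4 T cells held 182 and 161 CPM of Cd44 and CD8 T cells 79.0 and 106.

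Differences between cell types of the EAE libraries were tested with edgeR's quasi-likelihood test on the sums of each type, with the library as a block. The spread is what is left after the block, shared over all cell types with at least 10 cells in both libraries. Differences are log2 values ± SE, from a scale with TMM factors that differs from plain CPM, and genes were called at a Benjamini-Hochberg adjusted p of 0.05. With 1 EAE library left out each type is a single EAE sum, and the spread then comes from the adult and 18-month libraries, which are assumed to vary like the EAE sum, so a call lost in this way does not by itself show a smaller difference. Macrophages were set against microglia, the resident phagocytes of the brain, where 57.8% of 10519 genes were called. Of the 8 members tested 6 were higher in macrophages and 1 was lower on this scale, with 2 of the 6, Itgb1 and Itgb2, not higher in plain CPM. Cd44 (4.59 ± 0.13, adjusted p = 2.91e-86), Itgb7 (4.14 ± 0.17, adjusted p = 1.83e-59) and Itga4 (4.07 ± 0.18, adjusted p = 1.54e-55) were higher by the most, followed by Itgal (2.19 ± 0.16, adjusted p = 3.62e-30). Selplg was lower (-2.75 ± 0.19, adjusted p = 4.24e-16). These 5 calls held under each of 12 alternatives. The β chains Itgb1 (0.31 ± 0.11, adjusted p = 0.0105) and Itgb2 (0.25 ± 0.10, adjusted p = 0.0207) were called here but not with RLE size factors (adjusted p = 0.364 and 0.636), nor without EAE 1 (0.239 and 0.453) or EAE 2 (0.415 and 0.402). In plain CPM Itgb2 was at 269 and 265 in macrophages, below the 290 and 287 of microglia, and Itgb1 at 83.7 and 90.2 against 89.2 and 91.0, which overlapped. Itgam had -0.20 ± 0.11 (adjusted p = 0.108), and -0.39 with RLE size factors (adjusted p = 0.000850). RLE moved the median of all genes from -0.08 to -0.27 and the share of calls that were higher from 48.2% to 37.5%.

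T cells were set against macrophages, with 52.9% of genes called. All 8 members tested were called, 5 higher and 3 lower in T cells. Itgal (1.51 ± 0.10, adjusted p = 2.82e-32), Itgb7 (1.14 ± 0.11, adjusted p = 1.28e-18) and Itgb1 (1.12 ± 0.11, adjusted p = 7.31e-20) were higher in T cells. Itgam was lower by the most (-4.83 ± 0.19, adjusted p = 8.08e-66), and Cd44 (-1.34 ± 0.11, adjusted p = 3.46e-26) and Itgb2 (-0.68 ± 0.10, adjusted p = 1.26e-09) were lower too. Itga4 (0.34 ± 0.11, adjusted p = 0.00522) and Selplg (0.79 ± 0.19, adjusted p = 0.000335) were higher too. Without EAE 1 or EAE 2 Itga4 had 0.22 and 0.44 (adjusted p = 0.661 and 0.299) and Selplg 0.81 and 0.78 (0.311 and 0.327), and Itgb2 was at 0.0507 without EAE 1. The members' median was 0.57, against 0.00 over all genes tested.

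Neutrophils against macrophages had 30.8% of genes called, and again all 8 members, 5 higher and 3 lower. Selplg was at 901 and 836 CPM in neutrophils and 263 and 269 in macrophages (2.07 ± 0.20, adjusted p = 9.76e-12), with no overlap. Itgal (1.19 ± 0.25, adjusted p = 2.10e-05), Itgam (0.70 ± 0.16, adjusted p = 0.000218), Cd44 (0.69 ± 0.13, adjusted p = 1.71e-06) and Itgb2 (0.46 ± 0.14, adjusted p = 0.00383) were higher in neutrophils as well. Itga4 (-2.25 ± 0.44, adjusted p = 7.67e-06) and both of its partners were lower, Itgb7 (-1.42 ± 0.28, adjusted p = 7.92e-06) and Itgb1 (-1.10 ± 0.27, adjusted p = 0.000368). The neutrophil level of Itga4 (11.2 and 7.31 CPM) rests on few UMIs and is near that of ECs (5.81 and 5.22), so the size of its difference is uncertain. The calls of Itgal (0.283 without EAE 1), Itgam (0.476 and 0.328 without EAE 1 or EAE 2), Cd44 (0.306 and 0.338), Itgb2 (0.807 and 0.644) and Itgb1 (0.0888 without EAE 2) were lost with 1 library left out. RLE factors moved the median of all genes from -0.27 to 0.00 and the share of calls that were higher from 43.6% to 60.3%, with no change in the members' directions.

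Dendritic cells against macrophages had 20.5% of genes called and 7 of 8 members. Itga4 was at 120 and 132 CPM in dendritic cells and 54.1 and 58.4 in macrophages (1.09 ± 0.13, adjusted p = 3.36e-13). Selplg (1.08 ± 0.19, adjusted p = 1.59e-05) and Itgb7 (0.90 ± 0.13, adjusted p = 1.19e-09) were higher too, so α4 and β7 were both higher in dendritic cells. Itgal (-1.43 ± 0.24, adjusted p = 3.07e-07), Itgam (-1.09 ± 0.15, adjusted p = 1.41e-10), Cd44 (-1.03 ± 0.12, adjusted p = 1.09e-13) and Itgb2 (-0.89 ± 0.12, adjusted p = 7.85e-11) were lower, both chains of LFA-1 and of Mac-1 among them. Itgb1 had 0.13 ± 0.14 (adjusted p = 0.622). Without EAE 1 or EAE 2 Itgb7 (adjusted p = 0.0769 and 0.0674) and Selplg (0.401 and 0.427) were not called, and without EAE 2 neither were Itgal (0.0718) and Itgb2 (0.0592). When cells were named one by one from marker scores, Itgb7 turned to -3.05 and Itgb1 was called (1.25, adjusted p = 7.17e-06). The other differences were then 2.70 for Itga4, 1.88 for Selplg, -3.43 for Cd44, -4.52 for Itgam, -5.39 for Itgb2 and -9.79 for Itgal. These values come from another set of cells under the same name, whose make-up was not tested. They do not add to the calls above. RLE factors moved the share of calls that were higher from 41.2% to 51.7%.

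**Figure D2:**
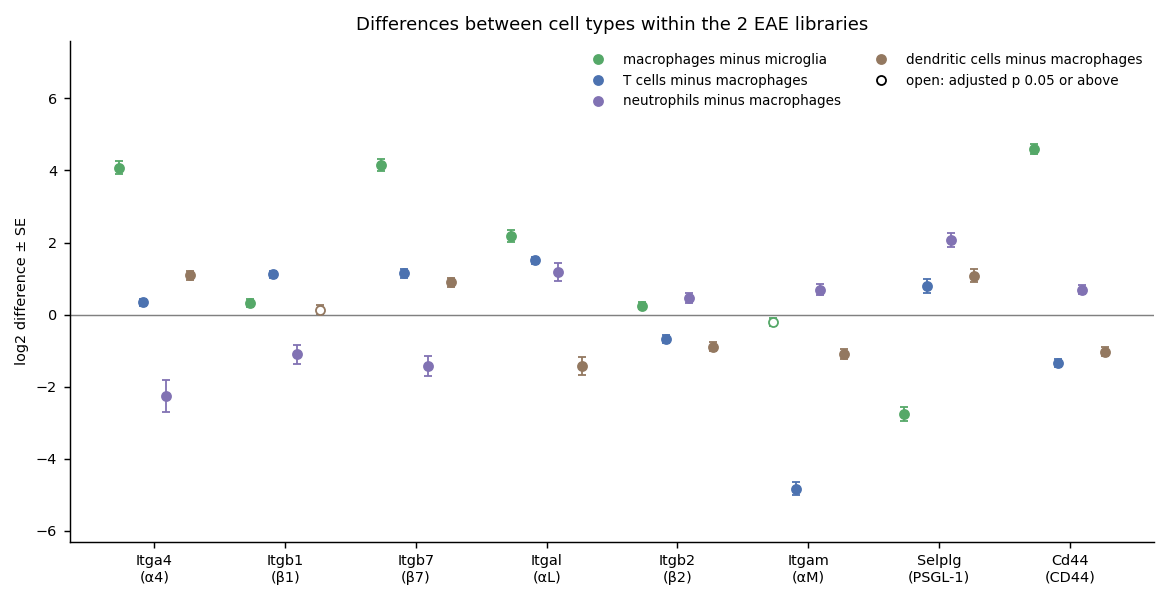
Log2 differences ± SE (edgeR, vertical axis) of 8 members between cell types of the 2 EAE libraries, with 4 comparisons by colour and open points where the adjusted p was 0.05 or above. Itgam is lowest in T cells relative to macrophages (-4.83), and Itga4, Itgb7 and Cd44 are higher by more than 4 in macrophages than in microglia.

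Between CD8 and CD4 T cells of EAE libraries 5.72% of genes were called and 2 of 8 members, both lower in CD8 T cells. Cd44 was at 79.0 and 106 CPM in CD8 and 182 and 161 in CD4 T cells (-0.87 ± 0.18, adjusted p = 4.51e-05), without overlap. Itgb1 was at 169 and 155 against 242 and 278 CPM (-0.66 ± 0.14, adjusted p = 0.000249). Without EAE 1 or EAE 2 the differences were -0.61 and -1.16 for Cd44 (adjusted p = 0.812 and 0.0710) and -0.85 and -0.48 for Itgb1 (0.254 and 0.854), in the same direction and not called. Itga4 was at 121 and 106 CPM in CD8 and 76.6 and 84.5 in CD4 T cells (0.53 ± 0.18, adjusted p = 0.0562), and was called under 5 of 12 alternatives, among them RLE factors (adjusted p = 0.0137), which moved the share of calls that were higher from 35% to 49.6%. Itgal, Itgb2 and Itgb7 differed by 0.13 ± 0.15, -0.07 ± 0.14 and -0.11 ± 0.13 (adjusted p = 0.801, 0.927 and 0.827).

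EAE was compared with adult libraries in the resident cells that both hold in number, in a fit over all 4 groups. In microglia 28.0% of 10810 genes were called, and 5 of the 8 members tested, 3 higher and 2 lower in EAE. The median of the members was 0.24 and that of all genes -0.02. The members' median includes Itgal, Cd44 and Itgb7, which had too few adult UMIs for a fall to be called. It therefore does not show that the members rose as a set. Of the other members tested, Itgb1, Itgam and Selplg had negative values and Itga4 and Itgb2 positive ones. Itgam was at 440, 454 and 407 CPM in Adult 1 to 3 and at 234 and 212 in EAE (-0.76 ± 0.12, adjusted p = 0.000193). Itgb1 was at 220, 211 and 196 CPM in adult and 91.0 and 89.2 in EAE libraries (-1.02 ± 0.12, adjusted p = 8.32e-06). Each EAE library lay below every adult library for both genes. Selplg, with 3505, 3613 and 3262 CPM in adult and 2285 and 2307 in EAE microglia, was lower in plain CPM without overlap but not called (-0.39 ± 0.23, adjusted p = 0.253). Itgb2 was at 263, 290 and 229 CPM in adult and 290 and 287 in EAE libraries (0.35 ± 0.16, adjusted p = 0.114), and was called higher without the filter on low counts (0.50, adjusted p = 0.00203).

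The members that rose in EAE microglia, which are all 3 counted as higher, had at most 2 UMIs in each adult library. Genes with so few adult UMIs pass the filter on low counts only if another group holds more. A fall in EAE could not have been called for them, so their direction is not a result in itself. Itgal had 1, 0 and 0 UMIs in the adult libraries and 49 and 63 in the EAE libraries, or 10.7 and 13 CPM (5 ± 0.74, adjusted p = 7.53e-05). By pooled counts this was a ratio of 31.3, with a 95% counting interval of 5.51 to 1248. Cd44 had 2, 0 and 2 adult UMIs and 75 and 76 in EAE (16.4 and 15.6 CPM), a ratio of 10.6 (4.04 to 39.2, adjusted p = 8.79e-05). Itgb7 had 2, 1 and 1 adult UMIs and 43 and 34 in EAE (9.41 and 7.00 CPM), a ratio of 5.38 (2.02 to 20.3, adjusted p = 0.00493). The fitted log2 values of such genes depend on the prior count. Itga4 stayed at 1.62 to 6.88 CPM in adult and 5.47 and 3.09 in EAE microglia (0.13 ± 0.54, adjusted p = 0.887).

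Markers of other leukocytes moved with these genes. The 7 macrophage markers, all with UMIs in EAE microglia, summed to 12.7 to 16.8 CPM in adult and 286 to 313 CPM in EAE microglia, which was 2.26% of their level in EAE macrophages. The 6 T cell markers went from 0 to 7.64 CPM in adult libraries to 23.2 and 23.3, or 0.469% of T cells, and the 7 neutrophil markers from 246 to 279 to 341 to 362 CPM, with Ly6g at 0 in both groups and the macrophage marker Chil3 at 0 in adult microglia. In the same cells Itgal stood at 28.1% of its macrophage level, Itga4 at 7.61%, Itgb7 at 7.27% and Cd44 at 5.34%. The 5 microglia markers summed to 10658 to 11766 CPM in adult and 3967 to 4053 CPM in EAE microglia. The part of these markers in the result was not tested. When the most similar libraries of each group were summed, which left 2 adult units and 1 unit each of the EAE and 18-month groups, Itgam (adjusted p = 0.114) and Itgb7 (0.0667) were no longer called, and Itgb7 was not called without EAE 1 (0.0756). Without Adult 1 the 5 calls stood, with -0.96 for Itgb1, -0.73 for Itgam, 2.62 for Itgb7 (adjusted p = 0.0264) and 3.59 for Cd44 (0.000991). Itgal then had no UMI in the adult libraries left, and its fitted value moved from 5 to 8.23 (adjusted p = 0.000504).

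In PVMs 22.8% of 7517 genes were called, and 4 of 6 members tested, 3 higher and 1 lower in EAE. Itgb2 was at 48.1, 30.7 and 45.1 CPM in adult and 104 and 112 in EAE libraries (1.53 ± 0.21, adjusted p = 3.55e-06), and this call held under each of 16 alternatives. Itgal had 2, 2 and 0 UMIs in adult and 28 and 20 in EAE libraries, a ratio of 11.9 (4.34 to 45.2, adjusted p = 0.000151). At so few adult UMIs a fall of Itgal could not have been called, so its direction is not a result in itself. Selplg was at 147, 102 and 116 CPM in adult and 191 and 224 in EAE PVMs (0.93 ± 0.28, adjusted p = 0.0393), a call lost under 8 of 16 alternatives, among them leaving out Adult 2 (0.114), Adult 3 (0.105), EAE 1 (0.0978) or EAE 2 (0.191). Itgb1 fell from 205, 190 and 186 CPM to 105 and 123 (-0.59 ± 0.15, adjusted p = 0.00576), which was not called without EAE 1 (0.145), with similar libraries summed (0.174) or with DESeq2 (0.0613). Itgam had -0.43 ± 0.20 (adjusted p = 0.130) and Itga4 -0.03 ± 0.26 (adjusted p = 0.949).

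Itgb7 and Cd44 were too low in PVMs to pass the filter. Itgb7 had no UMI in 514 adult PVMs and 22 in 458 EAE PVMs. Against a floor of 3 UMIs over the adult group this was 7.24-fold higher, without the counting error of the 22 UMIs. Cd44 had 4 and 24 UMIs, a ratio of 5.92 (2.04 to 23.5). The macrophage markers summed to 20.8 to 28.1 CPM in adult and 405 to 549 CPM in EAE PVMs (3.6% of macrophages), with all 7 seen in EAE, and T cell markers reached 0.831% of T cells, with Trac, a chain of the T cell receptor, at 0. Itgal stood at 55.7% and Itgb2 at 40.4% of their macrophage levels there. The part of these markers in the result was not tested. Without Adult 1 the 4 calls held (Itgb1 -0.54, Itgal 3.82, Itgb2 1.69, Selplg 1.11, adjusted p = 0.0160, 0.000439, 3.07e-06 and 0.0306).

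The change in EAE differed between microglia and PVMs for 2 of 7 members in a test of the difference itself (library as a block), which called 7.13% of genes. For Itgb2 it was -1.22 ± 0.21 (adjusted p = 1.24e-05), microglia minus PVMs. The difference for Selplg was -1.37 ± 0.16 (adjusted p = 1.46e-08), lower in EAE microglia and higher in EAE PVMs in plain CPM, and was not called without the block (adjusted p = 0.149). Itgb1 had -0.46 ± 0.17 (adjusted p = 0.0759). Without Adult 1 the difference was -1.35 for Itgb2 (adjusted p = 1.65e-05) and -1.51 for Selplg (adjusted p = 2.14e-09). This test of microglia minus PVMs was added after the data had been examined.

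**Figure D3:**
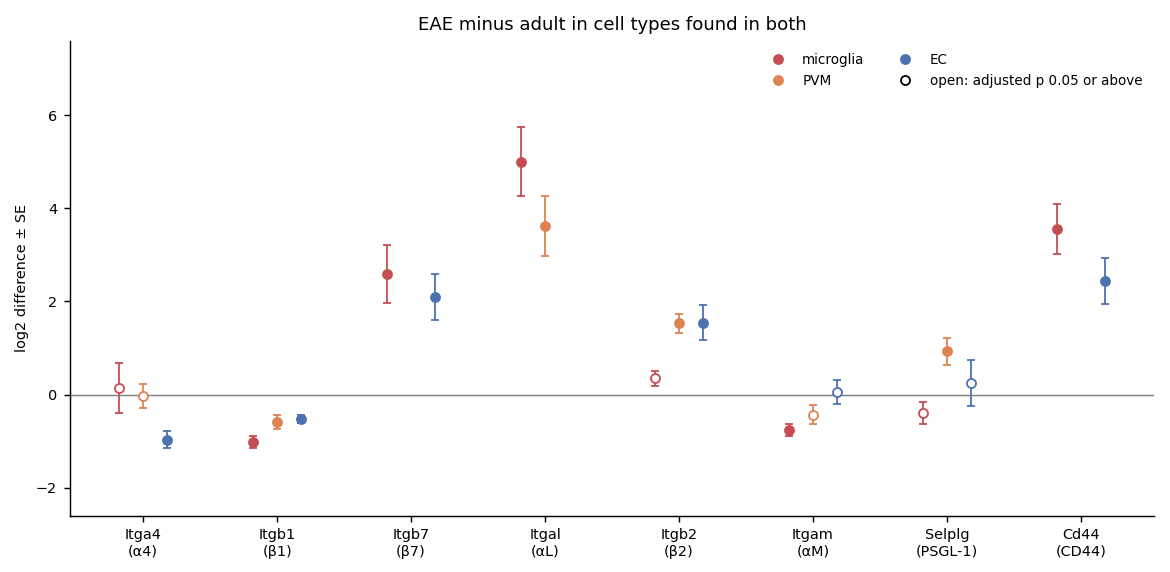
Log2 difference ± SE (edgeR, vertical axis) between the 2 EAE and 3 adult libraries for the members tested in microglia, PVMs and ECs, with open points at an adjusted p of 0.05 or above. Itgb1 lies below 0 in all 3 types (-1.02, -0.59 and -0.52) and Itgb2 above 1.5 in PVMs and ECs.

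ECs, the inner lining of vessels, serve as the vascular reference, and β1 is a chain of their own matrix receptors. In ECs 33.4% of 13611 genes were called and 5 of 7 members, 3 higher and 2 lower. Itgb1 was at 332, 335 and 350 CPM in adult and 211 and 215 in EAE ECs (-0.52 ± 0.08, adjusted p = 0.000584). Itga4 was at 8.95, 11.0 and 14.9 CPM in adult and 5.81 and 5.22 in EAE ECs (-0.97 ± 0.18, adjusted p = 0.00174). The groups did not overlap for either gene. Itgal did not pass the filter, with 8 UMIs in adult and 38 in EAE ECs, a ratio of 4.04 (1.86 to 10.0).

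Itgb2 (7.05, 2.78 and 2.25 CPM in adult, 10.7 and 8.52 in EAE, adjusted p = 0.00857), Itgb7 (0.397 to 1.08 against 2.50 and 3.02, adjusted p = 0.00703) and Cd44 (0.397 to 1.46 against 5.28 and 3.66, adjusted p = 0.00291) were higher in EAE ECs. Itgb7 and Cd44 had 13 and 17 UMIs over all adult ECs. At so few a fall could hardly have been called, so the direction of Itgb7 and Cd44 is not a result in itself. Itgb2, Itgb7 and Cd44 stayed at 3.6%, 2.45% and 1.49% of their macrophage levels. Macrophage markers in EAE ECs were at 0.958% of macrophages (117 to 137 CPM, against 21.5 to 55.6 in adult ECs) and T cell markers at 0.474% of T cells. The part of these markers in the result was not tested. With similar libraries summed none of the 5 was called (adjusted p = 0.144 for Itga4, 0.331 for Itgb1, 0.244 for Itgb2, 0.166 for Itgb7 and 0.0563 for Cd44), and 1 EAE library less ended the calls of Itgb2 (0.0811 without EAE 1) and Itgb7 (0.0697 without EAE 2). Selplg was at 66.4 CPM in Adult 1, 22.5 and 19.2 in Adult 2 and 3 and 36.7 and 35.9 in EAE ECs, which gave 0.26 ± 0.50 (adjusted p = 0.727), and it was called higher without Adult 1 (0.97, adjusted p = 0.000814). With cells named by marker score Selplg (1.37, adjusted p = 0.0106) and Itgam (1.34, adjusted p = 0.000379) were called higher and Itga4 was not called (adjusted p = 0.0954). The 5 other calls held without Adult 1, at -1.06 for Itga4, -0.52 for Itgb1, 2.10 for Itgb2, 2.35 for Itgb7 and 2.42 for Cd44. Of EAE ECs 3398 and 3501 lay in clusters that held 564 and 21 adult ECs.

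Between 18-month and adult microglia 3.08% of 10810 genes were called by edgeR and none of the 8 members tested, of which 2 had an unadjusted p under 0.05, as did 1927 of all 10810 genes. These were Itgam, at 286 and 327 CPM in 18-month against 440, 454 and 407 in adult microglia (-0.46 ± 0.12, adjusted p = 0.0543), and Itgb1, at 163 and 143 against 220, 211 and 196 (-0.41 ± 0.12, adjusted p = 0.0826). Both 18-month libraries lay below the adult libraries for both. Itgam was called with DESeq2 (adjusted p = 0.0385), without the filter on low counts (0.0409) and without Scrublet doublets (0.0449). Without Adult 1 Itgam had -0.43 (adjusted p = 0.0615) and Itgb1 -0.34 (adjusted p = 0.136). Selplg was at 3647 and 3657 CPM in 18-month microglia (0.12 ± 0.23, adjusted p = 0.840).

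T cells were numerous enough to set EAE against 18-month libraries, where 20.4% of 2508 genes were called. Of 7 members tested only Itga4 was called, at 87.9 and 78.8 CPM in EAE and 137 and 106 in 18-month T cells (-0.62 ± 0.20, adjusted p = 0.0290). The call was lost under 10 of 17 alternatives (adjusted p between 0.00626 and 0.998 over all), among them each library left out in turn (0.451 without Aged 1, 0.0855 without Aged 2, 0.282 without EAE 1 and 0.439 without EAE 2) and CD8 (0.609) or CD4 T cells alone (0.729). The make-up of the T cells moved with it: 73 of 279 T cells were CD4 and 193 CD8 T cells in 18-month libraries, against 1021 and 308 of 1539 in EAE.

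CD4 and CD8 T cells were then taken separately, with 21.2% of 4173 genes called in CD8 and 19.3% of 2398 in CD4 T cells. Itgb7, Itgb1 and Selplg were called in CD8 T cells, Selplg at 449 and 541 CPM in 18-month and 659 and 671 in EAE libraries (0.41, adjusted p = 0.0282). Of the members Itgb7 was called in CD4 T cells. Itgb7 was at 143 and 79.8 CPM in CD8 T cells of Aged 1 and 2 and at 288 and 298 in EAE (1.36, adjusted p = 1.45e-06). In CD4 T cells it was at 510 and 624 CPM in 18-month and 322 and 322 in EAE libraries (-0.70, adjusted p = 0.00506). The groups did not overlap in either type and stood in opposite order. Itgb1 was at 294 and 306 CPM in 18-month and 169 and 155 in EAE CD8 T cells (-0.90, adjusted p = 0.000124). In CD4 T cells Itgb1 was at 170 and 253 CPM in 18-month and 242 and 278 in EAE libraries, which overlapped (0.45, adjusted p = 0.238).

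The difference of these differences, CD8 minus CD4 T cells, was tested with the library as a block, which called 1.98% of 5163 genes and 2 of 7 members. It was 2.05 ± 0.27 for Itgb7 (adjusted p = 6.21e-05) and -1.33 ± 0.28 for Itgb1 (adjusted p = 0.0106). The call of Itgb1 was lost with DESeq2 (0.0670), without Aged 1 (0.161) and without EAE 2 (0.0709), and that of Itgb7 when cells were named by marker score (0.88, adjusted p = 0.535). The comparison was added after the data had been examined. Different clusters held the CD8 T cells of the groups: 189 of 193 in cluster 11 in 18-month libraries, and 233 of 308 in cluster 15 in EAE. In cluster 11 alone Itgb7 was at 140 and 79.8 CPM in 18-month and 207 and 225 in EAE libraries, and Itgb1 at 293 and 306 against 178 and 123. Selplg, called higher in EAE CD8 T cells, was not higher there, at 459 and 541 CPM in 18-month and 464 and 439 in EAE libraries. In cluster 15 of the EAE libraries Selplg was at 701 and 727 CPM. Of CD4 T cells 71 of 73 were in cluster 1 in 18-month libraries, and 510 and 511 in clusters 1 and 4 in EAE. In cluster 1 alone Itgb7 was at 510 and 599.8 CPM in 18-month and 381 and 370.4 in EAE libraries, and Itgb1 at 170 and 268 against 328 and 344, without overlap and higher in EAE. With each type limited to the cluster of its 18-month cells the differences were 1.49 for Itgb7 (adjusted p = 0.0372) and -1.66 for Itgb1 (adjusted p = 0.0152).

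**Figure D4:**
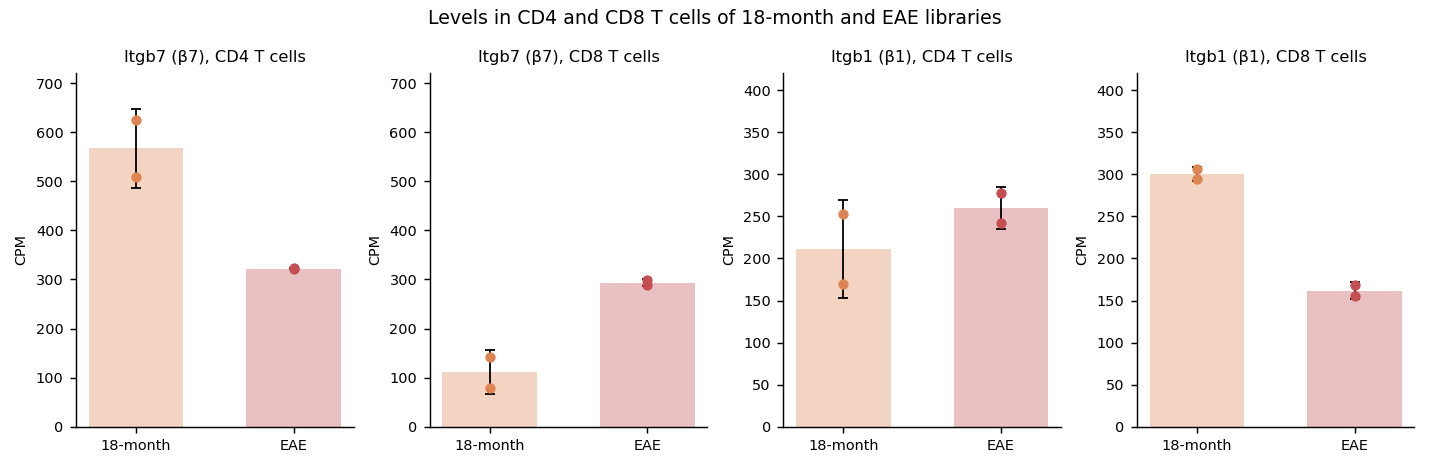
CPM of Itgb7 and Itgb1 (vertical axes) in CD4 and CD8 T cells of the 2 18-month and 2 EAE libraries, with points for libraries, bars for means and error bars for the SD. Itgb7 is lower in EAE CD4 T cells and higher in EAE CD8 T cells than in the 18-month libraries, and Itgb1 is lower in EAE CD8 T cells, while its values overlap in CD4 T cells.

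In macrophages of EAE against 18-month libraries 32.9% of 2026 genes were called and 2 of 8 members, both lower in EAE. Itgal was at 156 and 110 CPM in 18-month and 39.6 and 44.8 in EAE macrophages (-1.50 ± 0.29, adjusted p = 0.00308), without overlap. Of the 55 18-month macrophages 51 lay in cluster 3, led by Ccr2 and Ly6c2, while EAE macrophages were spread over clusters 0 (786 cells, with Arg1 and Chil3), 3 (414) and 14 (249). Within cluster 3 Itgal was at 162 and 100.0 CPM in 18-month and 50.4 and 61.9 in EAE libraries (-1.16, adjusted p = 0.0207). Its call was lost without Aged 1 (0.110) and with names from marker scores (0.119). Itgb7 was at 197 and 186 CPM in 18-month and 113 and 113 in EAE macrophages (-0.60 ± 0.20, adjusted p = 0.0421), but within cluster 3 at 205 and 220 against 196 and 205 (0.01, adjusted p = 0.972). In the EAE macrophages of clusters 0 and 14 it was at 65.7 to 83.3 CPM. Each library left out in turn also ended the call of Itgb7, with adjusted p of 0.263 and 0.160 without Aged 1 or Aged 2 and 0.253 and 0.286 without EAE 1 or EAE 2.

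Neutrophils had 12.5% of 2332 genes called and 2 of 6 members. Selplg was at 493 and 278 CPM in 18-month and 901 and 836 in EAE neutrophils (0.92 ± 0.22, adjusted p = 0.0142), not called without Aged 2 (0.59, adjusted p = 0.167) or with DESeq2 (0.144). Itgal was at 147 and 122 CPM in 18-month and 87.0 and 63.4 in EAE neutrophils (-1.14 ± 0.35, adjusted p = 0.0481), a call lost under 8 of 13 alternatives, each library left out among them (0.118 and 0.166 without Aged 1 or Aged 2, 0.124 and 0.242 without EAE 1 or EAE 2). Itgb7 had no UMI in 80 18-month neutrophils and 25 in 324 EAE neutrophils. Against a floor of 3 UMIs over the 18-month group this was 2.64-fold higher, without the counting error of the 25 UMIs.

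In NK cells 22.7% of 822 genes were called and 1 of 5 members. Itgb2 was at 394 and 270 CPM in 18-month NK cells and at 101 and 91.3 in EAE NK cells (-1.69 ± 0.36, adjusted p = 0.000670), and at 422 and 570 in the 2 adult libraries with at least 10 NK cells. Every EAE value lay below every other value, all cells being of 1 cluster. The call held under 11 of 12 alternatives and was lost without Aged 1 (-1.37, adjusted p = 0.108). These comparisons of macrophages, neutrophils and NK cells were added after the data had been examined. Dendritic and B cells of 18-month libraries, 30 and 141 cells, were described by level only.

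The other genes of the pathway came from 5 lists. Over all genes tested 28.0% were called in microglia, 22.8% in PVMs and 33.4% in ECs between EAE and adult libraries, and the counts of the lists in these types are to be read against those shares. Of the regulators of integrin activation (15 genes, among them kindlin-3, talin and the Rap1 proteins that switch integrins to the binding form) 14 were tested in microglia, with 2 higher and 2 lower in EAE than in adult libraries, a share close to that of all genes. Sharpin, an inhibitor of integrin activation (1.11, adjusted p = 0.000311), and the adaptor Fyb (0.59, adjusted p = 0.00276) were higher and Apbb1ip was lower (-0.57, adjusted p = 0.00738). In PVMs 4 of 14 were higher and 0 lower, with Apbb1ip (0.81, adjusted p = 0.00923) and Fermt3 (kindlin-3, 0.65, adjusted p = 0.00317). In ECs 5 of 15 were higher and 1 lower, among them Rasgrp2 (0.64, adjusted p = 0.00152), Cyth1 (0.43, adjusted p = 0.00164) and Rap1a (-0.32, adjusted p = 0.0101).

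Of the enzymes that build selectin ligands on PSGL-1 (8 genes) 2 of 6 tested were higher in EAE microglia and 0 lower, and 2 of 6 were higher and 1 lower in PVMs, beside 28.0% and 22.8% of all genes called. B4galt1, a galactosyltransferase, was at 397 to 458 CPM in adult and 694 and 709 in EAE microglia (0.92, adjusted p = 1.13e-05), and rose in PVMs by 1.34 (adjusted p = 1.37e-08). Tpst2, which adds sulfate to tyrosines, was higher in PVMs (0.78, adjusted p = 0.000568) and the sialyltransferase St3gal6 lower (-0.69, adjusted p = 0.00368). In ECs 0 of 7 were higher and 2 lower, beside 33.4% of all genes called. In T cells St3gal6 was at 189 and 221 CPM in 18-month and 57.6 and 58.7 in EAE libraries (-1.90, adjusted p = 4.24e-07), 1 of 3 tested beside 20.4% of all genes, without overlap between groups. Of these cells 193 of 279 were CD8 at 18 months and 1021 of 1539 were CD4 in EAE. Within CD4 T cells St3gal6 was at 357 and 380 CPM in 18-month and 52.2 and 55.3 in EAE libraries, and within CD8 T cells at 164 and 167 against 92.3 and 107.

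The counts that follow stand beside 28.0% of all genes called in microglia, 22.8% in PVMs and 33.4% in ECs. Among the ligands (9 genes) Vcam1, the partner of VLA-4, was at 345 to 476 CPM in adult and 1220 and 1376 in EAE PVMs (1.82, adjusted p = 3.20e-09), 1 of 5 tested there. In microglia Vcam1 was higher (1.02, adjusted p = 0.00770) and Icam1, a ligand of LFA-1 and Mac-1, lower (-1.30, adjusted p = 0.00217), 2 of 5 tested. In ECs 2 of 8 were higher and 0 lower, Fn1 (fibronectin) by 0.98 (adjusted p = 1.77e-05). Of other integrins (12 genes) 1 of 8 was higher and 4 were lower in EAE microglia, with Itgav at -0.58 (adjusted p = 0.00581), and 5 of 9 were higher in ECs, with Itga6 at 0.93 (adjusted p = 4.18e-06) and Itga1 at 0.32 (adjusted p = 0.0313). In PVMs 1 of 4 was higher, Itgb5 (0.53, adjusted p = 0.0439). Of other homing and adhesion receptors (8 genes) 1 was higher and 2 lower of 4 tested in microglia, with Cd48 at 117 to 125 CPM in adult and 199 and 204 in EAE libraries (0.94, adjusted p = 0.000113). Cd48 was also higher in 18-month microglia (0.72, adjusted p = 0.0139), the only gene of the 5 lists called between 18-month and adult microglia, 1 of 4 tested in its list and 0 of 8, 14, 6 and 5 in the others, beside 3.08% of all genes. S1pr1, which guides lymphocytes out of tissue and is made by ECs too, was lower in EAE PVMs (-1.34, adjusted p = 7.22e-05; 1 of 4 tested) and higher in ECs (0.86, adjusted p = 7.05e-05; 3 of 6 higher). Without Adult 1 the calls of the related genes named for these types held but for Itgb5 in PVMs (0.47, adjusted p = 0.106), and Vcam1 in microglia moved to 1.59.

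Between cell types in EAE 57.8% of all genes were called for macrophages against microglia, and 52.9%, 30.8% and 20.5% for T cells, neutrophils and dendritic cells against macrophages. Beside these shares, 4 of 8 homing receptors were higher and 1 lower in macrophages than in microglia, 4 higher and 2 lower in T cells than in macrophages (Cd2 by 6.43, Cd226 by 6.42 and Spn by 3.56), 2 higher and 1 lower in neutrophils (Cd24a by 4.74, Cd48 by -2.09), and 3 higher and 1 lower in dendritic cells (Cd24a by 0.96). Skap1, the adaptor of T cell integrin activation, was higher in T cells by 6.20 (adjusted p = 2.76e-100) and its relative Skap2 lower (-3.28, adjusted p = 1.02e-63). Of the 15 regulators 9 were higher and 4 lower in macrophages than in microglia, 8 and 5 in T cells than in macrophages, 8 and 0 in neutrophils, and 2 and 5 in dendritic cells. Rassf5 was higher in T cells (1.82), neutrophils (2.43) and dendritic cells (0.87) than in macrophages, and lower in macrophages than in microglia (-1.05). St3gal6 was lower in macrophages than in microglia (-3.60) and higher in T cells (1.31) and neutrophils (2.78) than in macrophages, and higher in CD8 than in CD4 T cells (0.92, adjusted p = 0.000350).

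Matrix ligands of integrins were compared in the same fits. Spp1 (osteopontin) and Fn1 were higher in macrophages than in microglia, by 3.71 and 3.33, and lower than in macrophages in T cells (-3.98 and -3.23), neutrophils (-3.74 and -2.49) and dendritic cells (-4.47 and -2.92). Vcam1 was lower in macrophages than in microglia (-0.97). The integrin chains Itgb5 (-2.55) and Itga6 (-1.97) were lower in macrophages than in microglia, and Itgb5 was lower again in T cells (-2.998), neutrophils (-1.89) and dendritic cells (-2.09) than in macrophages. Among the enzymes, St3gal4 was higher (2.46) and Gcnt1 (-1.99) and B4galt1 (-1.15) lower in macrophages than in microglia. Against macrophages St3gal4 was lower in T cells (-0.85) and higher in neutrophils (0.87) and dendritic cells (0.68), Tpst2 was lower in neutrophils (-0.60) and dendritic cells (-0.53), and B4galt1 was lower in dendritic cells (-0.95).

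Of the regulators, Cyth1 (2.28), Skap2 (0.76) and Rap1b (0.57) were higher and Apbb1ip (-0.59) and Vav1 (-0.52) lower in macrophages than in microglia. Against macrophages the kinase Stk4 was higher in T cells (0.92) and dendritic cells (0.90), Vav1 was lower in both (-1.05 and -0.86), and Fermt3 was lower in T cells (-0.83). Rasgrp2 (1.88) and Skap2 (1.27) were higher in neutrophils, and Fyb (-1.40) and Sharpin (-0.58) lower in dendritic cells. In CD8 T cells Skap1 was higher (0.33) and Rap1a (-0.50) and Spn (-0.60) were lower than in CD4 T cells. With RLE factors Tpst2 in neutrophils (adjusted p = 0.380), Sharpin in dendritic cells (0.0539) and Spn in CD8 T cells (0.108) were not called.

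The genes whose levels followed each member most closely were sought over 63 sums of a cell type in a library (at least 20 cells) and 12615 genes, which share libraries and depth, as Pearson's r of log2(CPM + 1). Itgb2 went with the actin-bundling protein Lcp1 (0.925), Sema4d (0.919) and Cotl1 (0.909), and Itgal with Pstpip1 (0.899), Spn (0.879) and Cd52 (0.865). Itgam went with Fcer1g (0.867), Igsf6 (0.849) and Tyrobp (0.846), Selplg with Bin2 (0.876), Pag1 (0.828) and Ccdc88b (0.818), and Cd44 with Cytip (0.883), Itgal (0.855) and Lsp1 (0.85). The closest genes were Rps27a (0.884), Runx3 (0.876) and Rpsa (0.873) for Itgb7, and Myo6 (0.831), Zc2hc1a (0.823) and Ndufa5 (0.815) for Itgb1. Itga4 had none above 0.716 (Mndal, then Ifi203 at 0.699 and Runx3 at 0.698), and Itgae, at no more than 5.63 CPM in these sums, reached 0.640 with Lag3, 0.624 with Capn3 and 0.612 with Tmem173. Between chains that pair, r was 0.686 for Itgal and Itgb2, 0.606 for Itga4 and Itgb7, 0.493 for Itgam and Itgb2, 0.0875 for Itgae and Itgb7 and 0.02 for Itga4 and Itgb1.

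Both chains of an integrin come from the same cell, so cells with a UMI of both were counted at a common depth of 1500 UMIs, drawn at random from each cell, and cells below that depth were not used. Intervals are exact Clopper-Pearson intervals of 95% and cover counting error only. LFA-1 chains (Itgal and Itgb2) were seen together in 7.07% of 297 CD8 T cells (4.43 to 10.6) and 5.70% of 983 CD4 T cells of EAE libraries (4.33 to 7.33), in 2.78% of 216 neutrophils (1.03 to 5.95), 2.11% of 1425 macrophages (1.42 to 2.99) and 0.371% of 2425 microglia (0.170 to 0.703). In 6259 ECs there were 0 such cells, which by the floor of 3 cells allows a share of up to 0.0479%. Mac-1 chains (Itgam and Itgb2) were together in 9.73% of microglia (8.58 to 11.0), 6.60% of macrophages (5.36 to 8.01) and 6.02% of neutrophils (3.24 to 10.1), and in 0 of 1487 T cells, which by the same floor allows up to 0.202%.

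VLA-4 chains (Itga4 and Itgb1) were together in 5.11% of 352 dendritic cells (3.06 to 7.96), 4.37% of CD4 T cells (3.18 to 5.85) and 4.17% of 120 NK cells (1.37 to 9.46), against 0.288% of ECs (0.171 to 0.454), where β1 is high. The α4β7 chains were together in 5% of NK cells (1.86 to 10.6), 4.04% of CD8 (2.10 to 6.95), 3.87% of CD4 T cells (2.75 to 5.27), 2.84% of dendritic cells (1.37 to 5.16) and 1.26% of macrophages (0.750 to 1.99), and in 0 of 6259 ECs. Intervals of the lymphocyte types and dendritic cells overlapped for both. αEβ7 chains were seen in 1 of 983 CD4 T cells. Before thinning the median depth was 2362 UMIs in ECs, 2982 in CD4 and 3374 in CD8 T cells, 3112 in microglia, 5928 in macrophages and 1809 in neutrophils. A cell with no UMI of a chain may still hold its transcript. Single members were above the interval of ECs in 60 of 90 shares over leukocyte types, and in 70 without thinning. These shares pool the cells of both EAE libraries and include Itgae and the remaining T cells as a type. The same count was not made over all genes, so it is a description only.

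**Figure D5:**
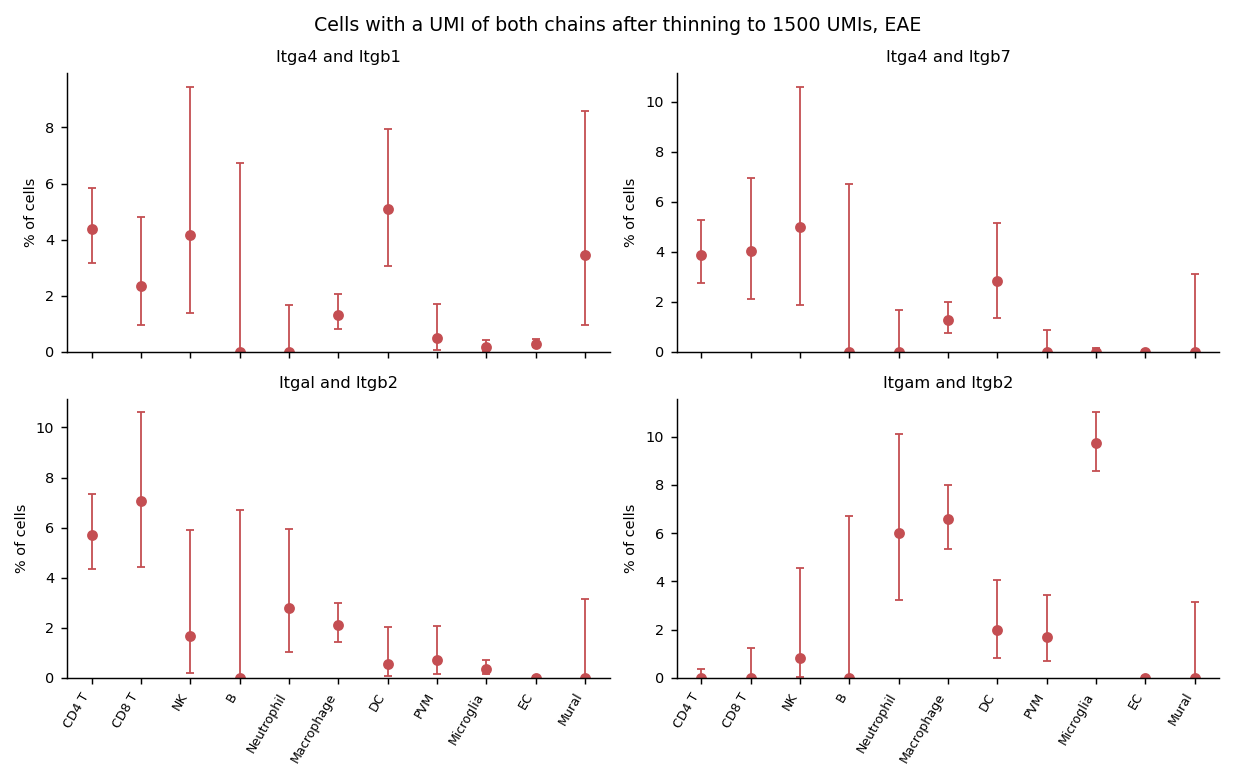
Share of EAE cells with a UMI of both chains of VLA-4, α4β7, LFA-1 or Mac-1 (vertical axes, percent) by cell type after thinning to 1500 UMIs, with exact 95% intervals. The Mac-1 pair is seen in microglia (9.73%), macrophages and neutrophils and in no T cell, and the LFA-1 pair most in CD8 (7.07%) and CD4 T cells (5.70%).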

How the data were processed

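Counts were analysed for single-cell libraries of mouse cerebral cortex (10x 3′ v2). The authors deposited raw UMI counts per gene and cell barcode, with no normalization. Per the labels' processing notes the tools were bcl2fastq 2.19.1.403, UMI-tools 0.5.3, STAR 2.5.3a and featureCounts 1.6.1 (Subread), with mm10. The members and gene lists were chosen with earlier results of these data known.

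Barcodes with 500 to 6000 genes and at most 25% mitochondrial UMIs were kept. Cells were clustered in Seurat 5.3.0 (R 4.3.3) on 2000 variable genes (12 components, resolution 0.5), and immune cells again (20 components, resolution 1). Clusters were named from marker genes. The 9 members and related genes were left out of both steps. Doublets were called with Scrublet in scanpy 1.11.5 and kept, except in an alternative that removed the 818 calls (1.62% of cells).

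UMIs were summed per library and cell type (at least 10 cells) and tested with edgeR 4.0.16 (filterByExpr, TMM, quasi-likelihood), adjusted over all genes tested by Benjamini-Hochberg. EAE against adult, 18-month against adult and EAE against 18-month fits held every group with a sum of at least 10 cells. For neutrophils and CD8 T cells these were the 18-month and EAE libraries alone. Macrophages had no adult sum, and NK and CD4 T cells had no juvenile sum. Juvenile 1 and Juvenile 2, which differed by about the sampling noise in ECs and microglia, were summed to 1 unit. Adult 2 and Adult 3 did so in microglia alone (over the limit of 1.2 in ECs) and stayed 2 units. All members are named, and related genes where called and at 50 CPM or more in the higher group, at most the 3 with the largest change per list and direction. A related gene that met this rule is not reported here. The 3 genes most like each member needed 20 CPM in 1 sum. Alternatives were DESeq2 1.42.0, RLE factors, no filter, other names and clusters (among them the same clustering with another kernel of the linear algebra library OpenBLAS), and each library left out. The tests were checked on simulated data. Total UMIs per library set the precision, and intervals cover counting error only.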

Additional observations from a re-analysis of the deposited data

Results flagged for a closer look

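Itgb7 and Itgb1 were singled out because the difference between EAE and 18-month libraries was not the same in CD8 and CD4 T cells. For Itgb7 the CD8 value exceeded the CD4 value by 2.05 (edgeR, adjusted p = 6.21e-05), with each EAE library above both 18-month libraries in CD8 and below both in CD4 T cells. For Itgb1 the difference was -1.33 (adjusted p = 0.0106), with each EAE library below both 18-month libraries in CD8 T cells and overlapping values in CD4 T cells. Itgb2 and Selplg were singled out because the difference between EAE and adult libraries was not the same in microglia and PVMs. The value in microglia minus that in PVMs was -1.22 for Itgb2 (adjusted p = 1.24e-05) and -1.37 for Selplg (adjusted p = 1.46e-08). Selplg was not called in microglia alone (adjusted p = 0.253), and its difference was not called without the block (0.149). In the T cell test the call of Itgb7 was lost with names from marker scores (0.88, adjusted p = 0.535). That of Itgb1 was lost under 3 of 14 alternatives. Both tests of such differences were added after the data had been examined.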

How the results depend on the processing

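Of 1496 values of members under alternatives, 1295 kept direction and side of the threshold, 93 lost the threshold, 24 gained it and 84 turned direction, 3 of them in called values (Itgb7, in dendritic cells against macrophages and in macrophages between EAE and 18-month libraries). The cause of the changes was not tested. Counts of called genes with similar libraries summed were 824 in microglia, 790 in PVMs and 680 in ECs of EAE against adult, 2 in 18-month microglia, 77 in T cells and 334 for microglia minus PVMs. DESeq2 called 994 in PVMs, 75 in neutrophils, 89 in NK cells, 39 for CD8 minus CD4 T cells and 326 for microglia minus PVMs. Without the filter 724 were called in 18-month microglia, 996 in T cells and 159 for CD8 minus CD4. Naming by marker score gave 1041 in macrophages and 123 in NK cells between groups, at least 30 cells per sum gave 1186 in T cells, CD8 T cells alone gave 886, subclustering at resolution 0.6 gave 167 for CD8 minus CD4, and the cluster of the 18-month cells gave 418 in macrophages and 20 for CD8 minus CD4. With 1 library left out in turn, counts ranged from 1645 to 2747 in microglia, 967 to 1624 in PVMs, 2255 to 5025 in ECs, 28 to 477 in 18-month microglia and 164 to 245 in T cells. They ranged from 3545 to 3724 for macrophages against microglia, 3352 to 3399 for T cells, 1813 to 1882 for neutrophils and 705 to 780 for dendritic cells against macrophages, and 115 to 138 for CD8 against CD4 T cells. Between EAE and 18-month libraries they ranged from 377 to 545 in macrophages, 148 to 318 in neutrophils, 110 to 144 in NK cells and 40 to 93 for CD8 minus CD4 T cells, and from 413 to 739 for microglia minus PVMs. Clustering depended on the linear algebra kernel: with another kernel, chosen after seeing the data, and each cluster given the type of most of its cells, 99.7% of cells kept their type but 89.5% of CD8 T cells did, 73 genes were called in NK cells, and Itga4 was called in CD8 against CD4 T cells (0.61, adjusted p = 0.0144).

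Log2 differences that turned direction follow, with macrophages, neutrophils, NK and T cells taken between EAE and 18-month libraries. Without the filter they were Itga4 0.015 for EAE against adult PVMs, and Itgal 0.085, Itgb2 0.21 for T cells, and Itga4 0.13, Itgam 0.17, Selplg 0.035, Cd44 0.18 for macrophages, and Itgb2 0.072 for neutrophils, and Itgb7 0.098, Selplg 0.072 for NK cells, and Itga4 -0.19 for CD8 minus CD4 T cells. With cells named by marker score they were Itga4 0.0047 for EAE against adult PVMs, and Itgb7 -3.05 for dendritic cells against macrophages, and Itga4 0.52, Itgam 0.64, Itgb7 0.058, Selplg 0.061, Cd44 0.83 for macrophages, and Itgb1 0.078, Itgb7 0.24 for NK cells, and Itgal 0.090, Selplg -0.86, Cd44 -0.25 for CD8 minus CD4 T cells, and Itgal -0.29 for microglia minus PVMs. In CD4 T cells alone they were Itgb1 0.45, Itgal 0.33, Itgb2 0.32, Itgb7 -0.70 for T cells. In CD8 T cells alone they were Itgal 0.037 for T cells. With at least 30 cells per sum they were Itgb2 0.031 for T cells, and Itga4 0.090, Itgb1 -0.088, Itgam 0.057, Selplg 0.24, Cd44 0.11 for macrophages, and Cd44 -0.0089 for CD8 minus CD4 T cells. With similar libraries summed they were Itgb2 0.014 for T cells. With DESeq2 they were Itgb2 0.030 for CD8 against CD4 T cells, and Cd44 -0.019 for neutrophils. With RLE factors they were Itgb2 0.030 for CD8 against CD4 T cells, and Cd44 -0.023 for neutrophils. With subclustering at resolution 0.6 they were Itgb2 0.0029 for CD8 against CD4 T cells, and Itga4 -0.013 for CD8 minus CD4 T cells. In the cluster of the 18-month cells they were Itga4 0.088, Itgb1 -0.096, Itgb2 -0.14, Itgam 0.016, Itgb7 0.014, Cd44 0.13 for macrophages, and Selplg -0.17 for CD8 minus CD4 T cells. With the other kernel they were Itgb2 0.012 for T cells, and Itgb2 0.012 for CD8 against CD4 T cells, and Itgal -0.076 for NK cells, and Itga4 -0.18 for CD8 minus CD4 T cells. With single libraries left out the ranges were Itga4 -0.28 to 0.54 for EAE against adult microglia, and Itga4 -0.15 to 0.13 for EAE against adult PVMs, and Itgam -0.12 to 0.28, Selplg -0.043 to 0.97 for EAE against adult ECs, and Itgb2 -0.089 to 0.072, Selplg -0.11 to 0.18 for T cells, and Itgal -0.097 to 0.31 for CD8 against CD4 T cells, and Itgb1 -0.22 to 0.96, Itgb2 -0.11 to 0.58, Itgam -0.074 to 0.018, Selplg -0.40 to 0.11, Cd44 -0.067 to 0.013 for macrophages, and Itgb2 -0.50 to 0.15, Cd44 -0.070 to 0.081 for neutrophils, and Itgal -0.29 to 0.41, Itgb7 -0.57 to 0.00012 for NK cells, and Itga4 -0.31 to 0.11, Cd44 -0.11 to 0.51 for CD8 minus CD4 T cells, and Itga4 -0.27 to 0.92, Cd44 -0.11 to 1.38 for microglia minus PVMs.

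Same-numbered libraries were not taken as pairs: their deviations from the group means correlated at r from -0.124 to 0.118 between adult and EAE or 18-month microglia, PVMs and ECs, and from -0.028 to 0.0744 between EAE and 18-month T cells, CD4 and CD8 T cells, macrophages, neutrophils and NK cells. A replicate block gave 458 calls in neutrophils and -0.10 for Itgam in EAE against adult ECs, and the call of Itga4 in T cells was lost with it (adjusted p = 0.0595). Without the library block, the count for microglia minus PVMs was 326. Summing similar libraries left no residual degrees of freedom for macrophages, neutrophils and CD8 minus CD4 T cells, and resolution 0.6 merged the 18-month macrophages with another cluster, so these gave no value. The 24.5 CPM of 1 UMI in 12 NK cells shows how little depth the smallest sums have.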

Other observations

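Juvenile libraries were in the fits for the estimate of the spread, but were not compared with another group. They held Itgb1 at 504 to 535 CPM and Itga4 at 55.1 to 65.3 CPM in ECs, and Itgb1 at 251 to 286 CPM in microglia. Selplg was at 1133 to 2162 CPM in juvenile microglia, and Itgam at 338 to 401 CPM. A small immune cluster led by Ccr9, left without a cell type name, had 13 and 12 cells in EAE 1 and EAE 2, with Itga4 at 246 and 107 CPM.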
